A study of Mus musculus with 11 samples.

Results

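The Cebp and Gadd45 gene families were examined in LSKs (Lin-Sca1+Kit+ bone marrow cells, a fraction that holds hematopoietic stem cells and multipotent progenitors) of p53+/+, p53R248W/+, and p53-/- mice. The members were fixed by name as Cebpa, Cebpb, Cebpd, Cebpe, Cebpg, Gadd45a, Gadd45b, and Gadd45g, with Cebpa and Gadd45g as the genes that the study singled out, and all 8 were among the 12647 genes of the deposited count table. RNA-seq was performed on 3 libraries of each genotype, which makes 9. All mice had a C57BL/6 background. The p53+/+ mice carried a humanized p53 knock-in (HUPKI) allele, in which human sequence replaces the middle of the protein and the mouse Trp53 promoter drives expression. In p53R248W/+ mice a single copy of this allele held the R248W substitution, and p53-/- mice lacked p53, with the origin of the null allele not given in the sources used here. The mice were young. The sources did not say whether the libraries came from separate animals or from pools, so the tests measure the spread between libraries, which may be partly technical.

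C/EBP proteins are transcription factors with a basic region that contacts DNA and a leucine zipper through which they pair with each other and with related factors. C/EBPα is required for the step from common myeloid to granulocyte-monocyte progenitors and restrains the cycling of stem cells, C/EBPβ serves emergency granulopoiesis, and C/EBPε drives the last steps of granulocyte maturation. GADD45 proteins are small, acidic stress sensors that have no catalytic domain of their own and act by binding others, among them the kinase MAP3K4 upstream of p38 and JNK, PCNA, p21, and the complex of CDK1 with cyclin B1. Gadd45a is a textbook target of p53, Gadd45b responds to NF-κB and TGF-β, and Gadd45g to cytokines.

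The members lie apart in the genome except for Cebpa and Cebpg, which are neighbors. In GENCODE M21 on GRCm38, Cebpa occupies chr7:35119293-35121928 on the plus strand and Cebpg chr7:35046422-35056573 on the minus strand, with 62.7 kb between them. Cebpb (chr2:167688915-167690418, plus) and Cebpd (chr16:15887286-15891031, plus) are annotated with 1 exon, and Cebpe (chr14:54710360-54712174, minus) with 2. The Gadd45 genes are short and split into 3 or 4 exons. They are Gadd45a (chr6:67035096-67037457, minus), Gadd45b (chr10:80930073-80932204, plus), and Gadd45g (chr13:51846678-51848468, plus). Exons of antisense genes shared bases with 20.7% of the exon bases of Cebpb (Tmem189), 15% of Cebpd (Spidr), and 19.5% of Gadd45a (E230016M11Rik), so the counts of these 3 members are uncertain if reads were counted without strand, which the sources used here do not state. For Cebpa (Gm45091) and Cebpg (Gm45095) the shared part was 1.93% and 0.0799%, and for Cebpe, Gadd45b, and Gadd45g no such gene was found.

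Sequences before the gene start were read for 6 of the 8 members from RefSeq windows on GRCm38.p6, which hold 250 bases before and 50 bases after the start. Cebpd and Cebpe had no entry. For Gadd45a, Gadd45b, and Cebpg the RefSeq start lies inside the gene as annotated in GENCODE, so part of the window does too. Distances are given from the RefSeq starts. The 3 Gadd45 promoters are shown because Gadd45g was the member that passed a test and the others are its closest relatives, and the Cebpa promoter because this gene was singled out by the study. Each line holds the 250 bases before the start, 5′ to 3′ on the strand of the gene, and capitals mark matches on either strand. They are the CCAAT box, which is spelled by its name, and the TATA box, searched as TATAAA. The E-box that was searched is CACGTG. The C/EBP site that was searched is TTGCNNAA. The windows are chr13:51846425-51846674 (plus) for Gadd45g, chr10:80929841-80930090 (plus) for Gadd45b, chr6:67037408-67037657 (minus) for Gadd45a, and chr7:35119043-35119292 (plus) for Cebpa.
Gadd45g: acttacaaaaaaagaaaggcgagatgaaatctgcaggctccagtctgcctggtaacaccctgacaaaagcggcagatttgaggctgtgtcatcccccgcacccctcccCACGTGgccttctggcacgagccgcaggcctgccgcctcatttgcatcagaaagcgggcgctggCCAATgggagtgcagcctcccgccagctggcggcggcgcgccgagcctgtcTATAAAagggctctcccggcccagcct
Gadd45b: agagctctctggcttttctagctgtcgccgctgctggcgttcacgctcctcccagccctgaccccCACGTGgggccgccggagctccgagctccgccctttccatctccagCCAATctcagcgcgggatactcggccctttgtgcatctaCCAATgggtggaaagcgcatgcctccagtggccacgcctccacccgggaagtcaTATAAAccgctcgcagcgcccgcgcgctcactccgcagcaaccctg
Gadd45a: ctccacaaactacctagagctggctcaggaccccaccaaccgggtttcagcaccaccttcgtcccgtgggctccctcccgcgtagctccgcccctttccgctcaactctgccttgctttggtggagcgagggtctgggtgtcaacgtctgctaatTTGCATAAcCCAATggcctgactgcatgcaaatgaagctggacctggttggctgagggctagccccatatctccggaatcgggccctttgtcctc
Cebpa: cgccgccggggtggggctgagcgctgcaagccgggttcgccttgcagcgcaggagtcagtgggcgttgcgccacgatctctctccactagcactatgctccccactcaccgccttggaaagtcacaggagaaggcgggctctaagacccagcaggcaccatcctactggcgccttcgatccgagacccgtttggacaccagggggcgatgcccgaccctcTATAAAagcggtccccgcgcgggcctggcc

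Gadd45g and Gadd45b held the same 3 motifs in the same order, an E-box, CCAAT boxes, and a TATA box, which starts 27 bases before the start of Gadd45g and 46 before that of Gadd45b. Gadd45b held a second CCAAT box. Gadd45a held a C/EBP site that starts 95 bases before its start and a CCAAT box 86 before, and no match to the TATA box or the E-box. Cebpa held a TATA box 30 bases before its start. Over the whole windows, the CCAAT box was found in 4 of the 6 members against 37.4% of 32851 promoters, the TATA box in 4 against 13.6%, the E-box in 2 against 7.15%, and the C/EBP site in 1 against 10.8%. AP-1 (TGANTCA) and CRE (TGACGTCA) matched 0 of the 6 windows, against 7.81% and 1.79% of all promoters. The p53 consensus decamer, which is not in capitals above, was found in the window of Gadd45a alone, against 8.36% of promoters. A full p53 site, made of a pair of adjoining decamers with at most 1 mismatch, was not found within 2500 bases of the start of any of the 6 members and was present in 1.54% of 27025 such windows. Both strands were searched, no printed matches overlapped, and these matches describe letters and not bound sites.

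Total counts were between 18021375 and 29750702 per library. CPM are counts scaled to library size with TMM factors, which correct for differences in composition between libraries. Trp53 itself was read at 125 to 376 CPM in p53+/+, 219 to 240 in p53R248W/+, and 112 to 129 in p53-/- libraries, so transcript from this locus was still counted in p53-/- mice. The HUPKI allele holds human sequence and the genome build was that of the mouse. Trp53 levels in p53-/- therefore cannot be set against those of the other genotypes. All 8 LSK markers (Kit, Ly6a, Cd34, Flt3, Slamf1, Mecom, Procr, and Hlf) were detected in each library, with sums from 2927 to 4125 CPM. The 8 mature neutrophil markers summed to 30.3, 3594, and 130 CPM in p53+/+ replicates 1 to 3, to 132, 2292, and 53.2 in p53R248W/+, and to 14.7, 49.9, and 14.6 in p53-/-, so replicate 2 of p53+/+ and of p53R248W/+ stand apart from the other 7 libraries. Retnlg was at 0 in at least 1 library. B lymphoid markers summed to 4.68 to 24.7 CPM and T and NK lymphoid markers to 207 to 422.5 CPM. The T and NK sum was almost all Nkg7, at 197 to 407 CPM. Cd4, Cd8a, and Klrb1c were at most at 10.5 CPM in any library, and Cd3e and Cd3d were not among the deposited genes. Bulk libraries cannot tell fewer cells of a kind from less RNA per cell.

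Levels per gene length, as RPKM (reads scaled to gene length and library size), were compared between the members. In p53+/+ LSKs, Cebpb had the highest level at 35.4 ± 7.30 RPKM (SD, n = 3), which is at the 75.9th percentile of the genes in the table. Cebpg at 11.8 ± 0.443, Cebpa at 10.6 ± 2.09, Gadd45b at 9.70 ± 1.77, and Gadd45a at 8.80 ± 1.99 RPKM followed. Cebpd at 5.65 ± 1.39, Gadd45g at 4.67 ± 1.28, and Cebpe at 2.49 ± 3.01 RPKM were the lowest. The ranges over the 3 libraries were apart between Cebpb and Cebpg and between Gadd45a and Cebpd, and overlapped in the other 5 neighboring pairs, so the order within Cebpg, Cebpa, Gadd45b, and Gadd45a is not resolved. The order of the means was the same in p53R248W/+. In p53-/-, Gadd45a stood above Gadd45b and Gadd45g came last at 1.14 ± 0.565 RPKM, level with Cebpe at 1.14 ± 0.718.

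**Figure D1:**
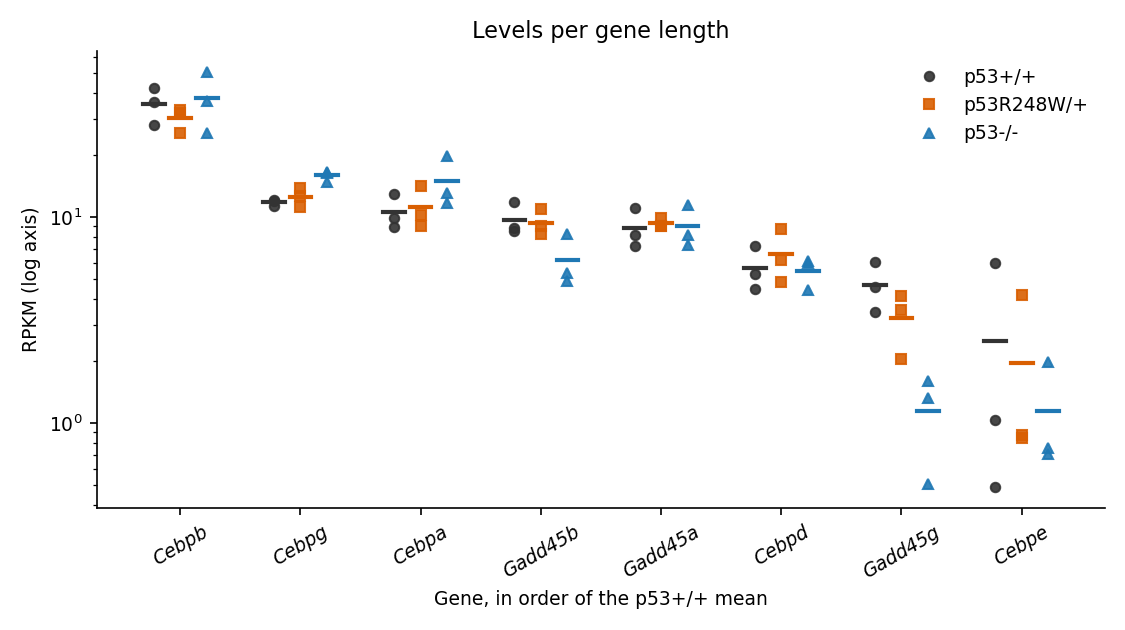
RPKM on a log axis for each member in the 9 libraries, with 1 point per library, a bar at the mean of each genotype, and genes in the order of their p53+/+ mean. Cebpb lies above all others in each genotype, and Gadd45g drops from 4.67 RPKM in p53+/+ to 1.14 in p53-/-.

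To see whether the heterozygous mutation altered these genes, p53R248W/+ was compared with p53+/+ LSKs. Expression of the 8 members was not distinguishable between the genotypes in these LSK libraries, including the pair singled out by the study. The study reported both genes as lower in p53R248W/+ by quantitative RT-PCR of long-term stem cells, with a paired test. It also reported more of the histone mark H3K27me3 at both genes. Cells, method, and pairing differ from the unpaired fit used here, so the values below are not a repeat of that measurement. Cebpa was at 23.5, 34.1, and 26.2 CPM in p53+/+ replicates 1 to 3 and at 23.8, 37.3, and 26.97 CPM in p53R248W/+. The ranges of the groups overlapped, and replicate 2 was the highest in each. The log2 fold change was 0.07 ± 0.25 (SE), with a 95% interval from -0.48 to 0.63 and an adjusted p of 1.00 (edgeR). Gadd45g was at 6.50, 3.74, and 4.91 CPM in p53+/+ and at 4.46, 3.803, and 2.19 CPM in p53R248W/+. The means were 5.05 ± 1.39 and 3.48 ± 1.16 CPM (SD, n = 3), and a single mutant library, replicate 3, was below all p53+/+ libraries. The log2 fold change of -0.53 ± 0.47 had an interval from -1.56 to 0.49 that holds 0, at an adjusted p of 1.00.

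The other 6 members had log2 fold changes between -0.36 (Cebpe) and 0.22 (Cebpd) in p53R248W/+ against p53+/+. The narrowest intervals were those of Cebpg, from -0.24 to 0.42, and of Cebpb, from -0.77 to 0.32. Of the 8 members, 0 passed an adjusted p of 0.05, against 0.00792% of 12625 genes tested (1 gene). Without adjustment 0 passed a p of 0.05, against 0.958%, DESeq2 and limma-voom also called 0, and 0 had libraries that did not overlap between the genotypes, against 5.04%. A count of 0 among 8 members is what these shares give in the table as a whole.

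**Figure D2:**
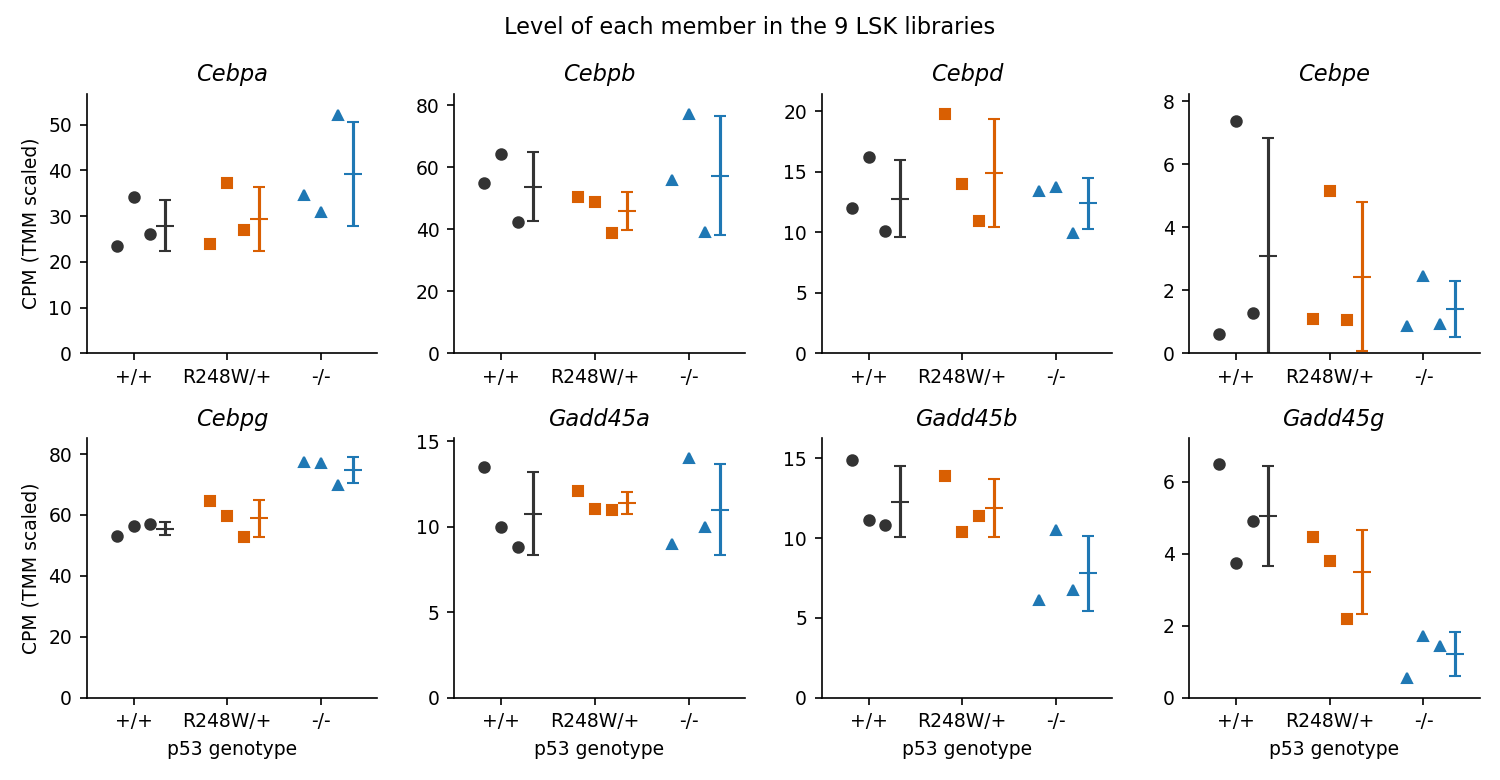
CPM of each member from 0 upward in the 9 libraries, 1 point per library in the order of replicates 1 to 3, with the mean and SD of each genotype beside them (the lower arm for Cebpe in p53+/+ runs below 0). The p53-/- points of Gadd45g lie below all others, those of Cebpg lie above all others, and the p53R248W/+ points overlap those of p53+/+ in each panel.

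The p53-/- libraries were compared with p53+/+ next. Their library names follow another form than those of the other genotypes. Whether they were prepared apart is not stated, and a difference in handling could not be told apart from loss of p53. Gadd45g was the only member that passed the test, and it was lower in p53-/- LSKs. Its levels were 0.544, 1.72, and 1.42 CPM in p53-/- replicates 1 to 3, against 3.74 to 6.50 CPM in p53+/+. The highest p53-/- library was thus below the lowest library of the other genotypes, 2.19 CPM in p53R248W/+ replicate 3. The mean was 1.23 ± 0.610 CPM against 5.05 ± 1.39, and the log2 fold change was -2.03 ± 0.50, with an interval from -3.11 to -0.94 and an adjusted p of 0.0483 (edgeR). The lowest value rests on 10 reads in p53-/- replicate 1, for which the exact Poisson 95% interval is 4.80 to 18.4 reads, and counting error alone is covered by it. The call is near the threshold. Leaving out p53R248W/+ replicate 1 gave an adjusted p of 0.0285, while leaving out any of the other 8 libraries gave 0.056 to 0.158, with fold changes from -2.34 to -1.67 over the 9 fits. Limma-voom gave 0.0604 and DESeq2 0.00236.

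The other Gadd45 genes did not pass. Gadd45b was at 14.9, 11.2, and 10.8 CPM in p53+/+, at 13.9, 10.4, and 11.4 in p53R248W/+, and at 6.15, 10.5, and 6.78 in p53-/-. The p53-/- libraries lie below the p53+/+ libraries, with replicate 2 just under them, and the log2 fold change was -0.65 ± 0.28, with an interval from -1.26 to -0.04 and an adjusted p of 0.187. Gadd45a was at 13.5, 10.01, and 8.81 CPM in p53+/+, at 12.1, 11.1, and 11.02 in p53R248W/+, and at 8.98, 14.1, and 10.02 in p53-/-. The groups overlapped, and the log2 fold change in p53-/- was 0.03 ± 0.26, with an interval from -0.54 to 0.61.

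The makeup of the family differed accordingly, a measure chosen after the values were seen and given without a test. Gadd45g made up 20.9, 16.9, and 22.4% of the summed Gadd45 RPKM in p53+/+ replicates 1 to 3 and 16.5, 16.9, and 10.1% in p53R248W/+. In p53-/- its share was 3.97, 7.45, and 8.88%, below all other libraries. The share of Gadd45a was 37.9 ± 2.28% (SD, n = 3) in p53+/+, 42.7 ± 2.76% in p53R248W/+, and 55.5 ± 2.04% in p53-/-. As a ratio within a library, this share does not depend on how libraries are scaled to each other.

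Of the Cebp genes, 0 of 5 passed in p53-/- against p53+/+. Cebpg, whose product lacks an activation domain of its own and works as a partner of other zipper proteins, was at 53.1, 56.2, and 57.05 CPM in p53+/+, at 64.7, 59.7, and 52.6 in p53R248W/+, and at 77.5, 76.9, and 69.7 in p53-/-. Every p53-/- library was above every other library. The log2 fold change was 0.43 ± 0.15, with an interval from 0.10 to 0.76 and an adjusted p of 0.122 with edgeR and of 0.0495 with DESeq2. Cebpg also had the smallest spread between libraries of the 8 members, with a biological coefficient of variation of 0.156 against a median of 0.23 over the table. Its neighbor Cebpa was at 34.6, 30.9, and 52.1 CPM in p53-/-, against 23.5 to 34.1 in p53+/+. Replicate 3 stood out, the groups overlapped, and the log2 fold change was 0.49 ± 0.25, with an interval from -0.07 to 1.04 and an adjusted p of 0.270. Cebpb was at 53.7 ± 11.1 CPM (SD, n = 3) in p53+/+ and 57.2 ± 19.1 in p53-/-, and Cebpd, which is induced in inflammation, was at 12.8 ± 3.15 and 12.4 ± 2.09. Their log2 fold changes were 0.09 ± 0.25 and -0.05 ± 0.29.

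In p53-/- against p53+/+, 1 of the 8 members passed an adjusted p of 0.05, against 3.50% of the genes tested. Cebpg, Gadd45b, and Gadd45g passed a p of 0.05 without adjustment, against 23.4% of genes, and the same 3 had libraries that did not overlap, against 31.4%. Both shares are large in the table as a whole. The median log2 fold change of the 8 members was -0.01, beside 0.00 over all genes.

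The p53R248W/+ and p53-/- libraries were also compared directly, which uses the same libraries as the comparisons above. By edgeR 0 of 8 members passed an adjusted p of 0.05, against 3.44% of genes, and limma-voom called 0 and DESeq2 1. Gadd45g had a log2 fold change of 1.49 ± 0.49 (higher in p53R248W/+), with an interval from 0.42 to 2.57 and an adjusted p of 0.110 with edgeR and 0.0381 with DESeq2. Cebpg had -0.34 ± 0.15, with an interval from -0.67 to -0.01 and an adjusted p of 0.228. These 2 members passed a p of 0.05 without adjustment, against 21.0% of genes, and had libraries that did not overlap, against 24.2%. Gadd45b had 0.61 ± 0.28 and Cebpa -0.42 ± 0.25, with adjusted p of 0.238 and 0.382, and their libraries overlapped.

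**Figure D3:**
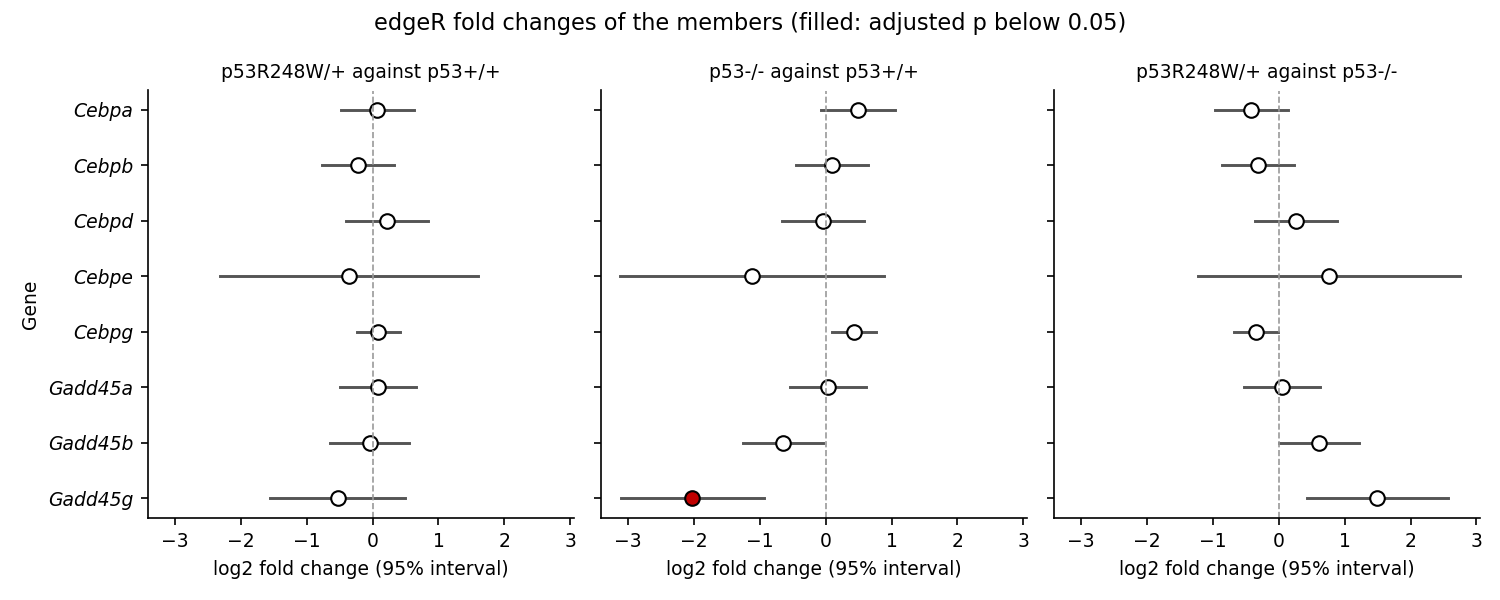
Log2 fold change of each member (points) with its 95% interval (lines) in the 3 comparisons of the edgeR fit, where a filled point has an adjusted p below 0.05. Gadd45g in p53-/- against p53+/+, at -2.03, is the only filled point, and the widest intervals are those of Cebpe.

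Cebpe varied more between libraries of a genotype than between genotypes. It was at 0.605, 7.37, and 1.28 CPM in p53+/+ replicates 1 to 3, at 1.08, 5.15, and 1.05 in p53R248W/+, and at 0.870, 2.44, and 0.933 in p53-/-. Replicate 2 was the highest in each genotype, and its biological coefficient of variation was 0.739. The same libraries had the highest sums of mature neutrophil markers. After the mean of each genotype was subtracted, the log2 level of Cebpe followed that sum with a Pearson r of 0.983 over the 9 libraries, and the genes most like it were Chil3 (r = 0.996), S100a9 (0.978), and Clec4a2 (0.977), of which the first 2 encode abundant proteins of myeloid cells. The log2 fold change of Cebpe was -1.12 ± 0.92 in p53-/- against p53+/+ (adjusted p = 0.491) and -0.36 ± 0.90 in p53R248W/+ against p53+/+. Without p53+/+ replicate 2 these values turned to 0.59 and 1.36, so no direction can be given for Cebpe. Cebpa followed the neutrophil sum with an r of 0.562 and Gadd45g with -0.0543. Without replicate 2 of p53+/+ and of p53R248W/+, Gadd45g had a log2 fold change of -2.20 in p53-/- against p53+/+ (adjusted p = 0.131) and Cebpa of 0.66 (adjusted p = 0.303). The part of neutrophil RNA in these results beyond those values was not tested.

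Genes that work with C/EBP proteins moved in both directions in p53-/- LSKs. Of 18 C/EBP partners and regulators, 2 were higher and 2 lower than in p53+/+ (edgeR, adjusted p below 0.05), beside 3.50% of all genes tested, with a median log2 fold change of 0.04. Trib2, which with COP1 directs the breakdown of C/EBPα protein, was at 7.25 to 10.03 CPM in p53+/+, 5.49 to 10.4 in p53R248W/+, and 36.9 to 44.4 in p53-/-, with a log2 fold change of 2.23 ± 0.27 (adjusted p = 0.00312). Hlf, a zipper factor of stem cells, rose by 1.14 ± 0.22 (adjusted p = 0.0242). Atf4, a zipper factor of the integrated stress response that pairs with C/EBP proteins, was at 115 to 144 CPM in p53+/+, 104 to 119 in p53R248W/+, and 41.2 to 48.4 in p53-/-. Its log2 fold change was -1.50 ± 0.16 (adjusted p = 0.00203). Irf8, a factor of the monocyte lineage, had -1.15 ± 0.20 (adjusted p = 0.0183). Trib2 and Atf4 passed in each of the 9 fits that left out a library. Hlf failed in 5 of them, with adjusted p up to 0.0837, namely without p53+/+ replicate 2 or 3 or any p53-/- library, and Irf8 failed in 4, with adjusted p up to 0.082, namely without p53+/+ replicate 2 or 3 or p53-/- replicate 1 or 2. In p53R248W/+ against p53-/- the same 4 genes passed, with log2 fold changes of -2.37 (Trib2), -1.41 (Hlf), 1.33 (Atf4), and 1.51 (Irf8), and in p53R248W/+ against p53+/+ 0 of 18 passed.

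C/EBP-dependent myeloid genes included the cytokine receptors Csf1r and Csf3r, the granule proteins of progenitors, and those of neutrophils. Their median log2 fold change was -1.001 in p53-/- against p53+/+, beside -0.001 over all genes, and 20 of 21 had a value below 0. The largest falls, from -8.46 (Mmp8) to -3.92 (Fcnb), were in neutrophil genes. For these, p53+/+ replicate 2 was far above replicates 1 and 3. Ltf, for example, was at 2.27, 559, and 16.4 CPM in p53+/+ replicates 1 to 3, with a log2 fold change of -7.93 ± 2.28. The other genes of the list ran from -1.17 (Ctsg) to 1.28 (Cd14). The part of replicate 2 in the median was not tested. None of the 21 passed an adjusted p of 0.05 with edgeR, while DESeq2 called 4. The count rose to 10 without p53R248W/+ replicate 1, 7 without p53+/+ replicate 1, and 5 without p53R248W/+ replicate 2, and was 0 without each of the other 6 libraries. Over all genes the calls went from 442 to 1552 with DESeq2 and to 1485, 499, and 278 without these 3 libraries in the same order. Of these genes, 6 are also on the mature neutrophil list and 5 on the list of granulocyte-monocyte progenitors, whose sums were 2287 to 3847 CPM in p53+/+, 3787 to 6764 in p53R248W/+, and 1535 to 2024 in p53-/-. Mpo, the myeloperoxidase of granulocyte progenitors, was at 1712, 3087, and 2611 CPM in p53+/+, at 3670, 5776, and 3213 in p53R248W/+, and at 1456, 1169, and 1125 in p53-/-. The 3 genotypes did not overlap for Mpo, but it did not pass in p53R248W/+ against p53+/+ (adjusted p = 1.00) or in p53-/- against p53+/+ (adjusted p = 0.0547), where 5.04% and 31.4% of all genes had libraries that did not overlap. It passed in p53R248W/+ against p53-/- at 1.76 ± 0.26 (adjusted p = 0.00778), as did Ctsg, the gene of cathepsin G, at 1.58 ± 0.32 (adjusted p = 0.0281, and up to 0.104 without p53R248W/+ replicate 2 or p53-/- replicate 1 or 3). These were 2 of 21 genes, beside 3.44% of all genes tested, and the count was 5 without p53+/+ replicate 2, 8 without p53R248W/+ replicate 1, and 1 without p53R248W/+ replicate 2 or p53-/- replicate 1 or 3.

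GADD45 partners and effectors held 3 calls among 17 genes in p53-/- against p53+/+, beside 3.50% of all genes, and 1 of them, Cdkn1a, passed whichever library was left out. Cdkn1a, a p53 target whose product p21 binds GADD45 proteins and stops the cell cycle, was at 67.0, 44.0, and 43.6 CPM in p53+/+, at 52.1, 37.7, and 35.7 in p53R248W/+, and at 17.8, 8.27, and 10.9 in p53-/-. Its log2 fold change was -2.07 ± 0.30 (adjusted p = 0.00914). In p53R248W/+ against p53-/- it was 1.76 ± 0.30 (adjusted p = 0.0126, and up to 0.0592 without p53-/- replicate 2 or 3). Ercc5, a nuclease of nucleotide excision repair, had -1.15 ± 0.27 (adjusted p = 0.040), and Mapk12, the gene of p38γ, had 1.22 ± 0.30 (adjusted p = 0.0497). Both failed in 8 of the 9 fits, with adjusted p up to 0.137 and 0.160, and passed only without p53R248W/+ replicate 1. The sums of the list were 1495 to 1545 CPM in p53+/+, 1454 to 1623 in p53R248W/+, and 1334 to 1567 in p53-/-. The median log2 fold change of the list was -0.25 in p53-/- against p53+/+, with 12 values below 0 and 5 above.

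Gadd45b is itself counted among genes that respond within minutes to stimulation, so immediate early and stress genes were read beside it. All 21 of these genes had log2 fold changes below 0 in p53-/- against p53+/+, with a median of -1.77 beside 0.00 over all genes, and 5 passed the test, beside 3.50% of all genes. They were Hspa1a (-5.70 ± 1.30), a heat shock protein, the AP-1 subunits Fos (-3.27 ± 0.66) and Jun (-1.77 ± 0.31), Zfp36 (-2.00 ± 0.47), which destabilizes mRNA, and Ppp1r15a (-1.25 ± 0.30), which is also known as Gadd34, with adjusted p from 0.0174 to 0.0431. Hspa1a was at 2.37, 34.2, and 99.4 CPM in p53+/+ replicates 1 to 3. Fos had the opposite order there, at 1267, 1043, and 259 CPM, so the genes of this list did not vary as 1 group. The count depended on single libraries. It was 0 without p53+/+ replicate 2 or any p53-/- library, 2 without p53+/+ replicate 3, 7 without p53R248W/+ replicate 2, and 12 without p53R248W/+ replicate 1. Over all genes, the calls moved as well, from 442 to 46 without p53+/+ replicate 2, 37 without p53+/+ replicate 3, 39 to 103 without a p53-/- library, and 1485 without p53R248W/+ replicate 1. The summed CPM was 6851, 4907, and 2434 in p53+/+ replicates 1 to 3, 8885, 2323, and 5410 in p53R248W/+, and 1621, 2026, and 1403 in p53-/-. Within each of the 2 genotypes with p53, Gadd45b had the same order of libraries as this sum, while in p53-/- replicates 1 and 3 were in the opposite order. After the mean of each genotype was subtracted, the log2 levels of Gadd45b, Gadd45a, and Gadd45g followed the sum with an r of 0.666, 0.585, and 0.163 over the 9 libraries, and that of Cebpa with -0.588. The part of this gene group in the lower level of Gadd45g in p53-/- was not tested.

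**Figure D4:**
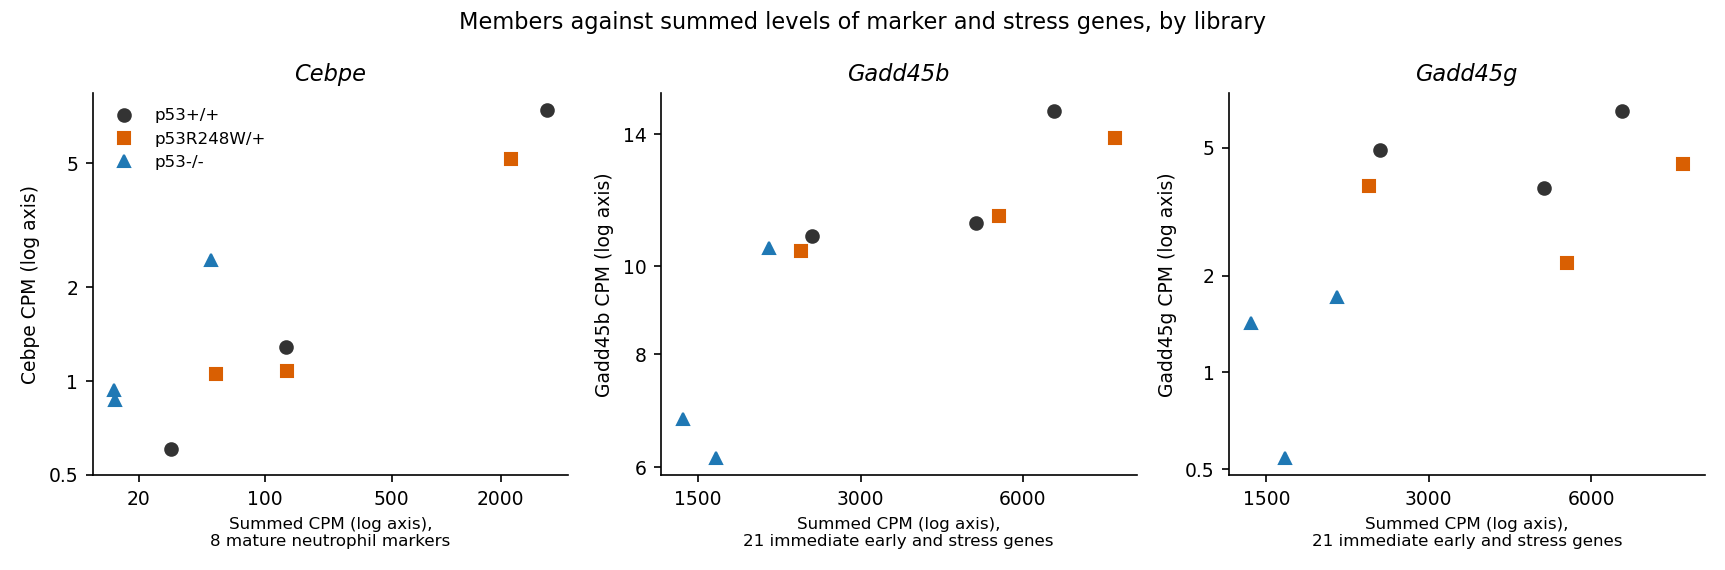
CPM of Cebpe against the summed CPM of 8 mature neutrophil markers, and CPM of Gadd45b and Gadd45g against the summed CPM of 21 immediate early and stress genes, on log axes with 1 point per library. Cebpe rises with the neutrophil sum, the p53-/- libraries lie at the low end of the stress sum (1403 to 2026 CPM), and for Gadd45g the p53-/- points lie below all others.

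In p53R248W/+ against p53-/-, 5 of 21 immediate early genes were higher, beside 3.44% of all genes called in either direction. These were Hspa1a (5.32), Fos (3.70), Klf2 (3.50), Zfp36 (2.03), and Jun (1.91), and the count was 0 without p53-/- replicate 3, 1 without p53-/- replicate 1 or 2, 2 without p53R248W/+ replicate 3, and 3 without p53+/+ replicate 2. Of 15 genes of JAK-STAT cytokine signaling, which acts upstream of several C/EBP genes, 0 passed in p53-/- against p53+/+ with edgeR (DESeq2 called 1). In p53R248W/+ against p53+/+ 0 genes of the 5 lists passed with edgeR.

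**Figure D5:**
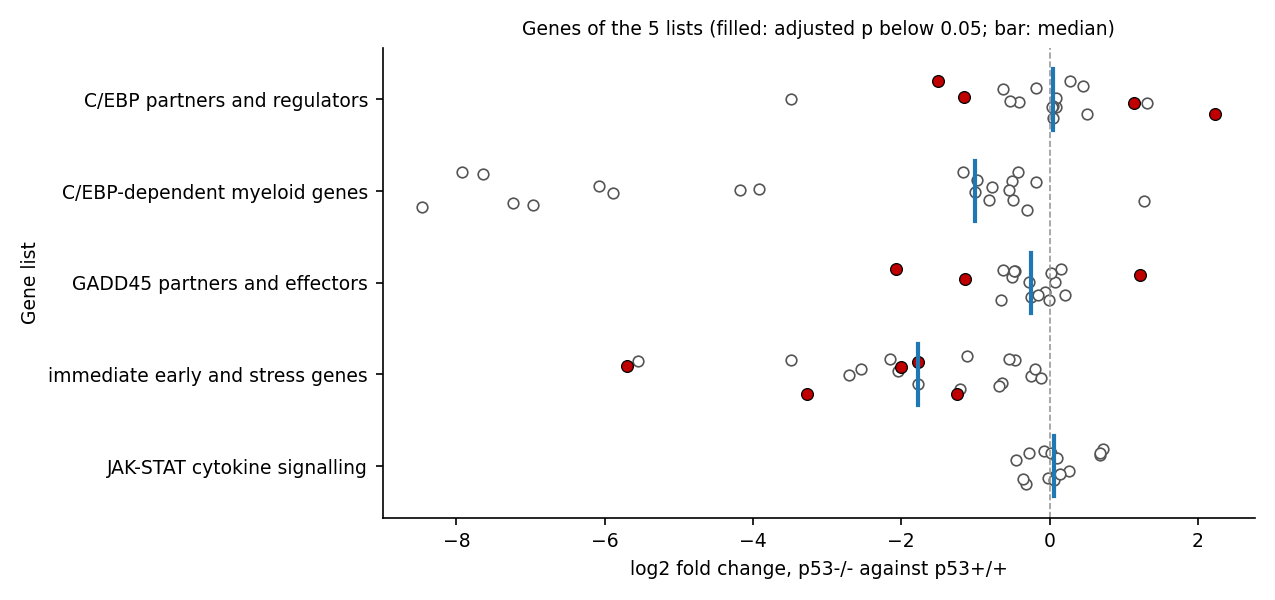
Log2 fold change in p53-/- against p53+/+ of each gene on the 5 lists (points, spread vertically only to separate them), where a filled point has an adjusted p below 0.05 and a bar marks the median of the list. The immediate early list lies below 0 throughout with a median of -1.77, while the C/EBP partners lie on both sides of 0.

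The genes whose log2 CPM was most like that of a member, after the mean of each genotype was subtracted, were listed for each member over the 9 libraries. For Gadd45g they were Fam175a (r = 0.992), H2-Eb1 (0.977), and Otub1 (0.971), and for Gadd45b Dguok (0.989), Srek1ip1 (0.987), and Lars2 (0.983). For Gadd45a they were Rab4a (0.986), Tusc1 (0.975), and a gene whose symbol reads as a date (0.975). For Cebpa they were Vcl (0.978), Slc22a15 (0.975), and Nedd9 (0.973), and for Cebpg Tmtc4 (0.972), Cdk2ap2 (0.968), and Mpi (0.967). For Cebpb they were Plin2 (0.957), Ccdc15 (0.936), and Dync1i2 (0.935), and for Cebpd Leprotl1 (0.988), Slfn2 (0.969), and Alg11 (0.939). Each is the best of all genes above the level limit over only 9 libraries, so values this high say little by themselves. Among the members themselves, Gadd45a and Gadd45b were closest (r = 0.938), followed by Cebpb and Cebpd (0.783), Cebpd and Cebpg (0.764), and Gadd45b and Gadd45g (0.690), while Cebpa and Gadd45b ran opposite to each other (-0.635). The neighbors Cebpa and Cebpg did not follow each other within genotypes (-0.296).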

How the data were processed

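RNA was sequenced from LSKs of 3 genotypes with 3 libraries each. The authors deposited raw counts of reads for 12647 genes, with no normalization and a lowest total per gene of 37. The processing notes name STAR 2.5.2b, featureCounts of Subread 1.5.0, edgeR, and the build mm10, and the labels name a SMART-Seq v4 kit. The authors' own fold changes and p-values in the table were not used. The 2 H3K27me3 ChIP-seq samples were not analysed here.

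Genotypes were compared with edgeR 4.0.16 (R 4.3.3), using filterByExpr, TMM factors, and quasi-likelihood tests from 1 model of the 9 libraries, adjusted by Benjamini-Hochberg over the 12625 genes kept. All 8 members passed the filter, also when 10 counts were required in every library. RPKM used the deposited gene lengths. DESeq2 1.42.0, limma-voom (limma 3.58.1), other scalings and filters, a replicate block, a fit to 6 libraries, and leaving out libraries were alternatives, and the last were extended after seeing the data by leaving out replicate 2 of p53+/+ and p53R248W/+ together. The search for full p53 sites and the family shares were also chosen after seeing the data. The members, lists, markers, and motifs were chosen with earlier results of these data known. Every member is named. From each list the genes past the threshold are named, at most 6 a comparison by fold change, with 1 result not reported here, and for each member the 3 most like genes with an average log2 CPM of at least 1. On simulated counts the tests were checked before use. Tables and figures were made with Python.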

Additional observations from a re-analysis of the deposited data

How the results depend on the processing

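Of the 8 members, the number past the threshold in p53-/- against p53+/+ was 1. It was 2 with DESeq2, 0 with limma-voom, 0 with the replicate block, 0 at an adjusted p below 0.01, 0 without replicate 2 of both p53+/+ and p53R248W/+ (chosen after seeing the data), and 0 to 1 when each library was left out in turn. In p53R248W/+ against p53-/- it was 0, and 1 with DESeq2, and 0 to 0 over the left-out libraries. In p53R248W/+ against p53+/+ it was 0 under every alternative run. The gene behind each change was Gadd45g, with the exception of Cebpg in the DESeq2 count of 2. Under the block, Gadd45g in p53-/- had an adjusted p of 0.0519. By the rule used (each same-numbered pair above 0.1) the numbers were not taken to pair the libraries. Same-numbered p53+/+ and p53R248W/+ libraries correlated in their deviations at 0.361, 0.543, and 0.0388, against -0.476 to 0.00934 for other numbers, and each correlated best with its own number, a hint from the data of a partial pairing of these genotypes. Same-numbered pairs with p53-/- were at -0.108 to 0.132. The library names of p53+/+ and p53R248W/+ share a form at each number, and those of p53-/- have another. The block changed no other member's call.

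With each library left out in turn, values changed sign for members that were not called. The lowest and highest log2 fold changes in p53R248W/+ against p53+/+ were -0.14 and 0.24 for Cebpa, -0.04 and 0.43 for Cebpd, -1.53 and 1.36 for Cebpe, -0.04 and 0.28 for Gadd45a, and -0.19 and 0.11 for Gadd45b. In p53-/- against p53+/+ they were -0.18 and 0.31 for Cebpb, -0.19 and 0.16 for Cebpd, -1.77 and 0.59 for Cebpe, and -0.18 and 0.23 for Gadd45a, and in p53R248W/+ against p53-/- -0.02 and 0.45 for Cebpd, -0.41 and 1.42 for Cebpe, and -0.10 and 0.26 for Gadd45a. Without both replicate 2 libraries the sign changed in p53R248W/+ against p53+/+ for Cebpe (0.16), in p53-/- against p53+/+ for Cebpd (0.17), Cebpe (0.59), and Gadd45a (-0.02), and in p53R248W/+ against p53-/- for Cebpe (-0.43). The cause was not tested.

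Over all genes, the calls in p53-/- against p53+/+ went from 442 to 1552 with DESeq2, 882 with the replicate block, 894 in the fit to 6 libraries, and 37 to 1485 over the left-out libraries. In p53R248W/+ against p53-/- they went from 434 to 1325, 672, 208, and 77 to 1559. In p53R248W/+ against p53+/+ they went from 1 to 6 with DESeq2, 2 with the block, and 0 with the strict filter. The order of levels in p53+/+ was the same without TMM factors and as TPM. Counted over the 9 libraries without subtracting genotype means, 1 gene (Clec4a2, for Cebpe) remained among the most like. With only the bases before the start, the TATA box was found in 3 members in place of 4. Depth limits Gadd45g and Cebpe, which have as few as 10 and 12 reads in a library.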
